A study of Mus musculus with 20 samples.

Results

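The cytosolic ribosomal protein genes of the mouse were followed in brown adipose tissue, a fat depot whose cells produce heat. Members were the protein-coding genes whose symbols begin with Rps, Rpl or Rplp and a number, without the Rps6k kinases and pseudogenes. The rule uses names alone and found 85 of 55471 gene IDs, 30 of the small subunit, 43 of the large subunit, 3 of its stalk, 7 paralogs or other forms and 2 that are no part of the ribosome. Of the 85, 83 passed the filter on low counts and were tested. The other 2 were Rpl10l, with 0 counts in every library, and Rpl36al, with at most 0.214 CPM (a count scaled to the size of its library) in any library.

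The study sequenced mRNA from the tissue in 20 libraries. It held 4 groups of 5: wild-type mice at room temperature (WT_RT), wild-type mice after 4 h of cold (WT_cold), and mice with an adipose-specific knockout of CEBPB at room temperature (KO_RT) and after 4 h of cold (KO_cold). CEBPB is the transcription factor C/EBP beta, and the labels name neither the Cre driver of the knockout nor the age of the mice. Nor do they state whether each library had its own animal, so the p-values rest on spread among libraries that could be technical.

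A ribosome joins a small subunit, which reads the mRNA, to a large subunit, which links the amino acids, and each holds ribosomal RNA and many proteins that are needed in matched amounts. Most mRNAs of these proteins begin with a run of pyrimidines at the cap, the terminal oligopyrimidine (TOP) motif. Through it the kinase complex mTORC1 and the binding protein LARP1 set their translation, so the level of these mRNAs and their use by ribosomes can change separately. Only the mRNA level was measured here. Brown fat in the cold makes large amounts of new protein, Ucp1 among it.

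A pyrimidine run lay near the annotated start of many of these genes, though not of all. RefSeq promoters (GRCm38.p6) were found for 65 of the 85 members. A run of at least 7 pyrimidines lay within the 20 bases on either side of the start in 58.5% of those members and in 27.4% of the other genes. A C at the start followed by 4 pyrimidines was found in 21.5% and 2.96%. The lines below give 50 bases before and 20 after the start (base 51) for members that the results turn on, 5′ to 3′ on the strand of the gene, with such runs in capitals. Rps6 at chr4:86857348-86857417 (minus strand) and Rpl13a at chr7:45128726-45128795 (minus) were among the members that rose most. Rps13 at chr7:116334171-116334240 (minus) and Rps28 at chr17:33824543-33824612 (minus) rose as Rps6 did, with no run of that length here. Rplp0 at chr5:115559417-115559486 (plus) varied most within groups among members of at least 10 CPM, and Rpl3l at chr17:24727776-24727845 (plus) fell.
Rps6: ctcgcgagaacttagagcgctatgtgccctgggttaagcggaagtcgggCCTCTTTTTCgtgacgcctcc
Rpl13a: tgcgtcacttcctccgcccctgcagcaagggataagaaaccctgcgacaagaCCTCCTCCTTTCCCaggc
Rps13: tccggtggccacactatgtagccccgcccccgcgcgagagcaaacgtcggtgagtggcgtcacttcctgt
Rps28: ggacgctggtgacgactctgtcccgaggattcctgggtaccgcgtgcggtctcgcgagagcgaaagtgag
Rplp0: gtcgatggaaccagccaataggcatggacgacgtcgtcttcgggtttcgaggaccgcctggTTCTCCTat
Rpl3l: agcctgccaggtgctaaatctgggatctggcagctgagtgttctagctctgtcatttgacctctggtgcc

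Other motifs were counted on both strands of the whole promoter, 250 bases before to 50 after the start. The ETS core CGGAAG was in 66.2% of members and 18.7% of other genes, the GC box GGGCGG in 61.5% and 38.1%, and the YY1 core AAGATGG in 15.4% and 7.26%. The cAMP response element TGACGTCA was in 7.69% against 2.02%, the E-box CACGTG in 9.23% against 8.09%, CCAAT in 29.2% against 41.1% and TATAAA in 10.8% against 15.7%. The palindrome TTGCGCAA, a C/EBP sequence, was in 0 of the 65 members and 0.208% of other genes. A match is a description of the letters and not a bound site.

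Each library held between 27070755 and 55184989 counts on genes. Cebpb itself stood at 104.5 ± 19.9 CPM (SD, n = 5) in WT_RT and 143.5 ± 22.4 in WT_cold, against 0.564 ± 0.253 in KO_RT and 1.92 ± 0.278 in KO_cold, lower in every knockout library as labelled. The 10 brown adipocyte markers were present in every group, with sums of 15200 to 20830 CPM at room temperature and 24220 to 29260 in the cold. The higher sum does not stand for each marker. By the edgeR test described below, 4 of the 10 rose and 4 fell with cold in each genotype. Their median log2 changes were 0.008 in WT and -0.106 in KO. On the first principal component WT_RT replicate 4 (-23.4) and WT_cold replicate 5 (26.6) were the libraries closest to 0. Calls of named members that change without either or both are given below. The 16 skeletal muscle markers summed to between 6.19 and 1475 CPM for WT_RT and between 3.48 and 38.8 for WT_cold. In KO_RT the sum was 35.9 to 629.1 CPM, and in KO_cold, where Ckm, Myh4 and Myot had 0 counts, 5.16 to 16.5. The 12 lymphocyte markers summed to between 9.45 and 10.9 CPM for WT_RT and between 3.51 and 9.47 for WT_cold, to between 8.16 and 21.2 for KO_RT and between 4.55 and 6.196 for KO_cold, with none at 0 through a group. In whole tissue, fewer cells of a type and less RNA per cell cannot be told apart.

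The members together took under 1% of the gene counts in every library. Their share was 0.618%, 0.628%, 0.656%, 0.742% and 0.629% in WT_RT replicates 1 to 5, and 0.570%, 0.608%, 0.671%, 0.657% and 0.686% in KO_RT. It was 0.729%, 0.7098%, 0.765%, 0.707% and 0.737% in WT_cold, and 0.721%, 0.715%, 0.713%, 0.712% and 0.744% in KO_cold. In the knockout the temperatures did not overlap, while in WT they overlapped through WT_RT replicate 4, which also had the lowest muscle marker sum of its group. Reads that map to several places were left out by the counting. They made up 18.3% to 21.4% of reads, and ribosomal protein genes have many processed copies in the genome. In the median member, 55.4% of the 50-base words of the principal transcript also occur in another gene, so the levels of most members are lower bounds and comparisons between members are uncertain.

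**Figure D1:**
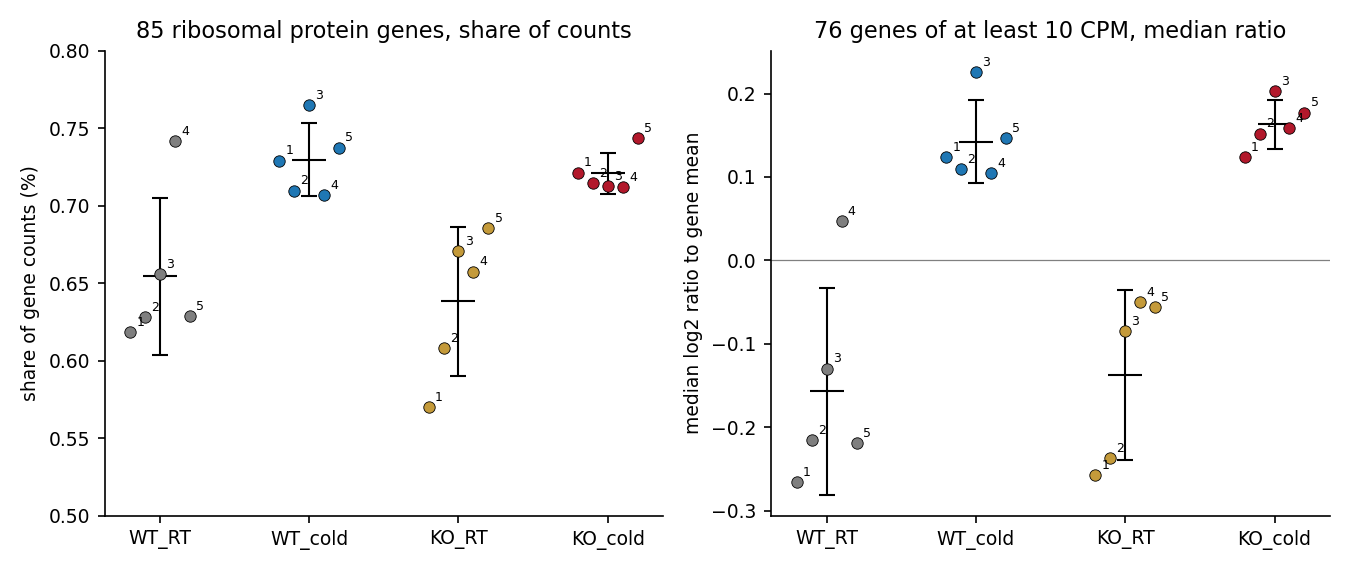
Share of gene counts held by the 85 members (left, %, axis from 0.5) and median log2 ratio of 76 members of at least 10 CPM to their own mean over all libraries (right), by library. Points carry replicate numbers and bars are mean and SD (n = 5); WT_RT replicate 4, at 0.742%, stands apart from the other WT_RT libraries, which lie between 0.618% and 0.656%.

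Levels per length differed widely between members. The 76 core subunit genes (small, large and stalk) ranged from 0.415 to 355.3 CPM per kb of principal transcript, with a median of 107.4. Among the highest were the stalk protein Rplp2 (355.3 CPM per kb), Rps27 (304.7), Rps15 (284.2) and Rpl8 (267.6), a protein near the catalytic centre of the large subunit. Rpl24, which forms a bridge between the subunits, Rps10, a protein of the small subunit's head, and Rpl13a were lowest, at 0.415, 2.25 and 3.84 CPM per kb, and are the only 3 core genes under 10 CPM. In these 3, other genes on the same strand cover part of the exons: Gm28037 47.0% of Rpl24, RPS10-NUDT3 20.6% of Rps10, and Gm45713, Mir5121 and Snord33 35.4% of Rpl13a. Reads in more than 1 gene were not counted, so these values understate the mRNA. Of their 50-base words, 81.7% in Rpl24, 92.4% in Rps10 and 57.4% in Rpl13a also occur in other genes. The overlapping genes count among those other genes, so the overlap and the shared words are not separate measures. The part of the overlap or of the shared words in the low levels was not tested.

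Cold raised most members in wild-type mice. With edgeR's quasi-likelihood test and adjustment over 15233 genes (threshold 0.05), 65 of 83 members rose and 1 fell. In the same libraries 16 of 16 muscle markers and 6 of 11 tested lymphocyte markers fell with cold. With the mean log2 level of the muscle markers added to the fit 49 members were called higher, and with that of the lymphocyte markers 35. Without WT_RT replicate 4 the count was 77, and without that library and WT_cold replicate 5 it was 75. The median member changed by 0.29 on the log2 scale, or 22.3%. Among all tested genes 26.2% rose and 30.2% fell, with a median log2 change of -0.05. In 39 of the 83 members every WT_cold library lay above every WT_RT library, which held for 18.9% of all tested genes. No member of at least 10 CPM changed as much as 2-fold, and the highest of them was Rpl7l1 at 0.64.

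Cold also raised most members in mice without C/EBP beta. In the knockout 73 of 83 members rose and 0 fell, with a median log2 change of 0.32, or 24.6%. There 15 of 16 muscle markers and 6 of 11 lymphocyte markers fell, and the count of members called higher was 31 with the muscle term and 41 with the lymphocyte term. Among all tested genes 27.5% rose and 31.7% fell, with a median log2 change of -0.05. In 56 members the libraries did not overlap and KO_cold was higher, against 21.6% of all tested genes. Of the count of 0, edgeR's test with no adjustment had 74 members under 0.05 in either direction, and DESeq2 called 1 member lower, Rpl3l (adjusted p = 0.0384). By these calls 62 members rose in both genotypes, 11 passed in KO and not in WT, 7 rose in neither, and 3 passed in WT and not in KO (Rpl11, Rps18 and Rps27l, the first 2 picked after their values were seen). The test of the difference between genotypes called none of the 83. Among all tested genes it called 0.427% higher and 0.315% lower, so a count of none is near the share of all genes.

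**Figure D2:**
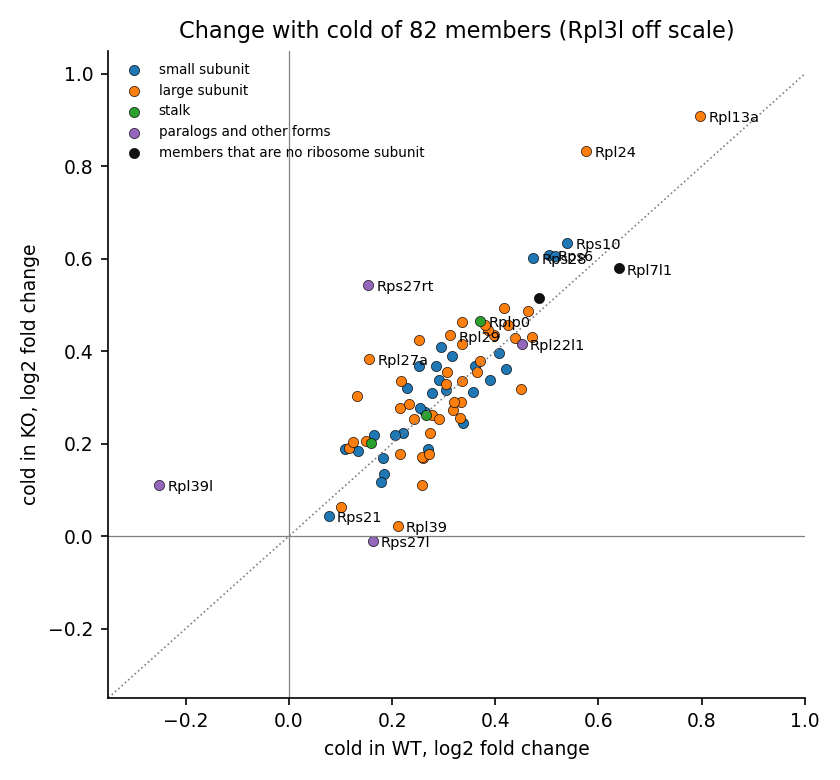
Log2 fold change with cold in WT (x) and KO (y) of 82 tested members, coloured by role, with Rpl3l left out (-2.84 and -1.995). Points lie near the dotted line of equal change; the median member is at 0.29 in WT and 0.32 in KO.

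In the small subunit the mRNAs of 25 of 30 genes rose in WT and of 27 in KO, and none fell. The shares that rose were 83.3% and 90%, against 26.2% and 27.5% of all tested genes. Rps6, the protein that S6 kinase phosphorylates downstream of mTORC1, measured 41.7, 36.8, 43.1, 56.1 and 42.7 CPM in WT_RT and 63.8, 64.4, 69.1, 57.6 and 57.6 in WT_cold. Knockout values were 38.0, 40.2, 44.4, 47.2 and 47.5 CPM at room temperature and 64.8, 65.1, 69.7, 65.3 and 66.4 in the cold. The groups did not overlap in either genotype, and WT_RT replicate 4 came closest to the cold level. Its log2 change was 0.50 ± 0.09 (SE, adjusted p = 4.05e-05) in WT and 0.61 ± 0.09 (adjusted p = 3.75e-06) in KO.

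Rps13, of the same subunit, rose by 0.52 and 0.61 (adjusted p = 1.05e-05 and 1.15e-06). Its values were 41.2, 41.2, 45.4, 53.1 and 45.9 CPM in WT_RT and 60.1, 62.8, 74.5, 66.7 and 60.1 in WT_cold, and 38.8, 42.9, 49.6, 49.3 and 47.9 in KO_RT and 67.4, 70.3, 74.5, 71.0 and 64.7 in KO_cold. No library of the cold groups reached down to room temperature. Rps28, a small protein near the path of the mRNA, measured 12.1, 15.5, 13.0, 13.5 and 14.1 CPM in WT_RT and 19.0, 15.2, 21.7, 19.9 and 19.1 in WT_cold, where replicate 2 overlapped WT_RT. In the knockout it went from between 11.3 and 14.1 CPM to between 18.2 and 21.2 with no overlap, a log2 change of 0.60 (adjusted p = 3.62e-06) after 0.47 (adjusted p = 6.63e-05) in WT.

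Rps10 had log2 changes of 0.54 (adjusted p = 0.0388) in WT and 0.64 (adjusted p = 0.0187) in KO, on levels of only 0.486 to 1.88 CPM over all libraries. Its WT call ended without any 1 of 5 libraries (WT_RT replicates 2, 3 and 5, WT_cold replicates 3 and 5; adjusted p up to 0.0815) and its KO call without KO_cold replicate 1 (0.0632). Marker terms ended both calls, and the WT call was also lost with no filter (0.0585) or both strands counted (0.061). At the other end Rps21, picked with its values known, measured 53.0 ± 1.37 CPM in WT_RT and 55.9 ± 3.17 in WT_cold, with changes of 0.08 and 0.04 (adjusted p = 0.28 and 0.555). Rps15, near the decoding site, and Rps27, both high per length, had changes of 0.13 (adjusted p = 0.0535) and 0.42 in WT and of 0.18 and 0.36 in KO. Except for Rps15 in WT these were called. Rps15 passed there in 11 alternatives, among them DESeq2 (0.0102), the fit without WT_RT replicate 4 (0.22, adjusted p = 0.00138) and that without this library and WT_cold replicate 5 (0.20, adjusted p = 0.00348). The KO calls ended with the muscle term, at 0.07 for Rps15 (adjusted p = 0.536) and 0.24 for Rps27 (0.0625), and with the lymphocyte term (0.0825 and 0.0555).

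In the large subunit the mRNAs of 35 of 43 genes rose in WT and of 40 in KO, and none fell. The shares that rose were 81.4% and 93.0%, against 26.2% and 27.5% of all tested genes. Rpl13a, which is also known as a silencer of inflammatory mRNAs once it leaves the ribosome, measured 2.76, 2.66, 2.74, 2.40 and 3.74 CPM in WT_RT and 5.17, 3.83, 5.38, 5.54 and 4.98 in WT_cold. It went from 2.88, 2.89, 3.11, 2.31 and 3.12 CPM in KO_RT to 4.39, 5.57, 6.02, 4.86 and 6.05 in KO_cold. The groups did not overlap, and the log2 changes of 0.80 ± 0.13 (adjusted p = 3.04e-05) and 0.91 ± 0.14 (adjusted p = 6.33e-06) were the highest of all members, on the low counts described above. The highest WT_RT library was replicate 5, and the lowest WT_cold library replicate 2. Rpl24, with at most 0.482 CPM in any library, changed by 0.58 in WT (adjusted p = 0.0966) and 0.83 in KO (adjusted p = 0.032), and the KO value was 0.06 with both strands counted (adjusted p = 0.841). The KO call of Rpl24 ended without KO_RT replicate 1 or 3 or KO_cold replicate 4 or 5 (adjusted p 0.0683 to 0.0893). It also ended with DESeq2 (0.0533), no filter (0.105), the muscle term (0.107) and the lymphocyte term (0.0598). The WT value of Rpl24 was called without WT_RT replicate 1 (0.75, adjusted p = 0.0474).

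Among large subunit genes of high level, Rpl8 measured 194.3, 179.3, 199.2, 240.0 and 193.7 CPM in WT_RT and 249.2, 263, 275.8, 262.5 and 245.4 in WT_cold. Knockout values were 181, 177.3, 205.6, 221.2 and 203.4 CPM at room temperature and 248.7, 253.4, 259.6, 254.8 and 247.4 in the cold. No cold library lay within the range of room temperature. The change was 0.37 ± 0.07 (adjusted p = 0.000133) in WT and 0.36 ± 0.07 (adjusted p = 0.000169) in KO. Rpl4, whose protein lines the exit tunnel, was picked with its values known: it had the highest CPM of the members in the heat map, going from 243.4 ± 22.2 to 307.2 ± 19.0 with cold in WT and from 233.6 ± 10.9 to 322.3 ± 9.30 in KO. Rpl22 and Rpl39, also picked after their values were seen, were called in neither genotype.

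**Figure D3:**
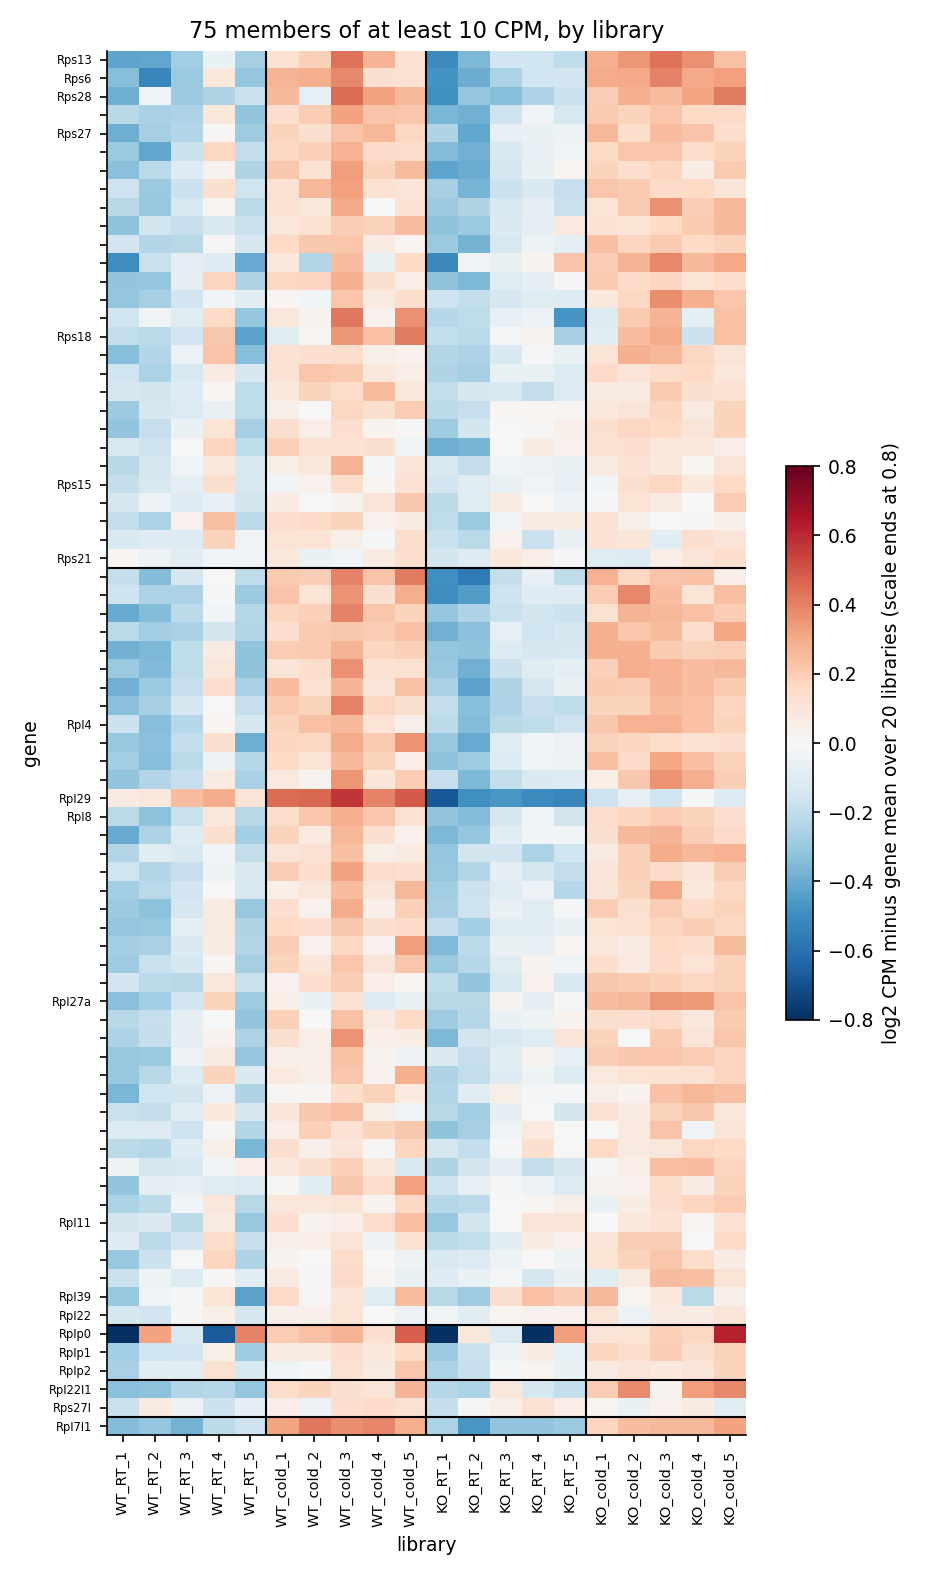
Log2 CPM minus the gene's own mean over 20 libraries, for 75 members of at least 10 CPM (rows, by role and then by mean in the cold, with members named in the text labelled) in each library (columns). Room temperature columns are mostly blue and cold columns mostly red in both genotypes; WT_RT_4 is paler than its group, Rpl29 follows genotype as well as temperature, and Rplp0 varies within groups more than the other rows, with replicates 1 and 4 lowest at room temperature.

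The stalk, which recruits the elongation factors, gave 1 of 3 genes higher in WT and 2 in KO. In WT that is 33.3%, near the 26.2% of all tested genes. In KO it is 66.7% against 27.5%, and 3 genes say little about the stalk as a set. Rplp1 rose from 90.3 ± 8.64 to 108.6 ± 3.02 CPM in WT (0.27 ± 0.06, adjusted p = 0.00125) and from 94.4 ± 8.70 to 113.1 ± 2.23 in KO (0.26 ± 0.06, adjusted p = 0.00134), with no overlap. Rplp2 went from 140.8 ± 13.4 to 157.2 ± 11.4 CPM in WT (0.16 ± 0.07, adjusted p = 0.0502) and rose from 139.8 ± 11.3 to 160.7 ± 4.62 in KO (0.20 ± 0.07, adjusted p = 0.0143). In WT, Rplp2 lay at the threshold and passed in 13 alternatives, among them DESeq2 (0.0132), the fit without WT_RT replicate 4 (0.24, adjusted p = 0.00327) and that without the pair WT_RT replicate 4 and WT_cold replicate 5 (0.20, adjusted p = 0.00989). The KO call of Rplp2 ended with the muscle term (0.08, adjusted p = 0.547) and the lymphocyte term (0.24, adjusted p = 0.0645).

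Rplp0, the stalk base and a common reference gene for quantitative PCR, varied more than any other member of at least 10 CPM. Its coefficient of variation within groups averaged 25.4%, against a median of 6.91% over 76 members. The values were 82.03, 188.6, 138.4, 94.8 and 198.6 CPM in WT_RT and 173.8, 177.3, 181.9, 165.2 and 209.5 in WT_cold. Knockout libraries had 71.4, 160.3, 139.9, 86.9 and 190.4 CPM at room temperature and 161.8, 162.4, 172.1, 169 and 230.8 in the cold. Replicates 1 and 4 were low at room temperature in both genotypes. The change with cold did not pass, at 0.37 ± 0.26 in WT (adjusted p = 0.244) and 0.47 ± 0.26 in KO (adjusted p = 0.137). It passed in KO without KO_RT replicate 5 (0.67, adjusted p = 0.0389), and with the lymphocyte marker mean as a term in WT (1.17, adjusted p = 0.0182) and KO (1.22, adjusted p = 0.00999).

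Its processed copy Rplp0-ps1 (chromosome 3, 93278141 to 93279073), looked up after these values were seen, was low where Rplp0 was high. The copy stood under 0.1 CPM in 6 libraries, WT_RT 2 and 5, WT_cold 5, KO_RT 2 and 5 and KO_cold 5, and between 1.57 and 3.69 CPM in the other 14. In all 4 groups the libraries with the copy under 0.1 CPM were those with the highest Rplp0, 160.3 to 230.8 CPM, against 71.4 to 181.9 CPM in the other libraries. Of the 50-base words of Rplp0, 41.8% occur in other genes. The part that reads shared with the copy have in the level of Rplp0 was not tested. Both genes are drawn in the plot of Rpl29, Rplp0 and Rplp0-ps1 by library.

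Of 5 tested paralogs, 2 rose and 1 fell in WT (40% and 20%), and 2 rose and 0 fell in KO (40% and 0%). Of all tested genes 26.2% rose and 30.2% fell in WT, and 27.5% and 31.7% did in KO. On 5 genes these counts say little about paralogs as a set. Rpl22l1, the paralog of Rpl22, rose from 10.2 ± 0.358 to 14.0 ± 0.633 CPM in WT (0.45 ± 0.08, adjusted p = 2.57e-05) and from 11.3 ± 1.14 to 15.04 ± 1.51 in KO (0.41 ± 0.08, adjusted p = 6.65e-05), while Rpl22 itself changed by 0.10 and 0.06 (adjusted p = 0.0977 and 0.303). Rps27l, the paralog of Rps27, was called in WT (0.16, adjusted p = 0.0289) and not in KO (-0.01, adjusted p = 0.894). The WT call ended without WT_RT replicate 1 (adjusted p = 0.0803) and without the pair WT_RT replicate 4 and WT_cold replicate 5 (0.0552). The lymphocyte term ended it too (0.184). Rps27rt, a copy of Rps27, stood near 1.41 CPM in WT_RT and changed by 0.15 in WT (adjusted p = 0.531). It was called in KO (0.54, adjusted p = 0.0251), a call that ended without KO_cold replicate 4 (0.081) or KO_RT replicate 5 (0.0562). The lymphocyte term ended that call as well (0.496). Rpl39l changed by -0.25 and 0.11, neither called.

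Rpl3l, the form of Rpl3 in skeletal and heart muscle, was the 1 member that fell. Its values were 3.61, 1.03, 0.257, 0.129 and 0.278 CPM in WT_RT and 0.241, 0.0569, 0.0294, 0.306 and 0.119 in WT_cold, with overlap, for a log2 change of -2.84 ± 0.90 (adjusted p = 0.0119). Without WT_RT replicate 1, the highest library, it was -1.53 (adjusted p = 0.0992). With the mean of the muscle markers as a term it was 0.15 (adjusted p = 0.892). In the knockout, where values were 0.684, 0.268, 1.195, 2.03 and 0.149 CPM in KO_RT and 0.179, 0.353, 0.186, 0.0928 and 0.267 in KO_cold, it changed by -1.995 (adjusted p = 0.0684). That value was called without KO_RT replicate 5 (-2.23, adjusted p = 0.0414) and was 1.73 with the muscle term (adjusted p = 0.11). The summed muscle markers were also highest in WT_RT replicate 1, at 1475 CPM.

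The other 2 members are not ribosome subunits and were among those that rose most. Rpl7l1, a nucleolar relative of Rpl7 that takes part in assembly of the large subunit, measured 69.1, 71.0, 67.9, 76.3 and 78.4 CPM in WT_RT and 109.7, 118.2, 114, 115.4 and 107.5 in WT_cold. It went from between 63.8 and 73.9 CPM in KO_RT to between 99.1 and 110.1 in KO_cold. Neither genotype overlapped, and the changes of 0.64 ± 0.05 (adjusted p = 2.19e-09) and 0.58 ± 0.05 (adjusted p = 7.39e-09) had the lowest adjusted p of all members. Rps19bp1, which binds Rps19, rose from 7.81 ± 0.844 to 10.9 ± 0.567 CPM in WT (0.48 ± 0.08, adjusted p = 1.34e-05) and from 8.27 ± 0.423 to 11.8 ± 0.798 in KO (0.52 ± 0.08, adjusted p = 6.06e-06).

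Few members differed between genotypes, and Rpl29 was the only 1 called at both temperatures. Between KO_RT and WT_RT, 0 members were higher and 1 was lower, with a median log2 difference of -0.00, where 1.38% of all tested genes were higher and 1.32% lower. In the cold 1 was higher and 1 lower, with a median of 0.01, where 3.51% of all genes were higher and 4.19% lower. With no adjustment, edgeR gave 1 member under 0.05 at room temperature and 4 in the cold, and DESeq2 also called 0 higher at room temperature. A difference that misses the threshold does not show equal levels.

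Rpl29 (chromosome 9, 106429454 to 106431568), a small protein on the surface of the large subunit, measured 26.3, 26.8, 29.9, 30.9 and 27.0 CPM in WT_RT and at 15.7, 17.9, 18.2, 17.7 and 17.4 in KO_RT. In the cold the values were 34.3, 34.6, 37.4, 33.1 and 35.3 CPM in WT and 22.4, 24, 22.5, 24.96 and 23.4 in KO. At both temperatures every knockout library lay below every wild-type library. The difference was -0.70 (adjusted p = 1.41e-07) at room temperature and -0.57 (adjusted p = 1.07e-06) in the cold, and it was called in every alternative run. Its rise with cold was 0.31 in WT and 0.43 in KO.

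The 10 nearest tested genes to Rpl29 on chromosome 9 had differences at room temperature of -0.30 to 0.42 (edgeR adjusted p 0.329 to 0.973). In the cold 3 of them were called, Poc1a (0.46), Dusp7 (0.93) and Pcbp4 (0.37), all higher in the knockout and named after their values were seen. Of all tested genes on chromosome 9, 4.68% were called at room temperature (40 of 855), the highest share of any chromosome, followed by 3.87% on chromosome 10. In the cold 9.94% were called there (85 of 855), a lower share than on chromosome 1 (95 of 901) alone. Words of Rpl29 were shared with 82 other genes over 78.5% of its principal transcript. The part of such copies in its difference was not tested.

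**Figure D4:**
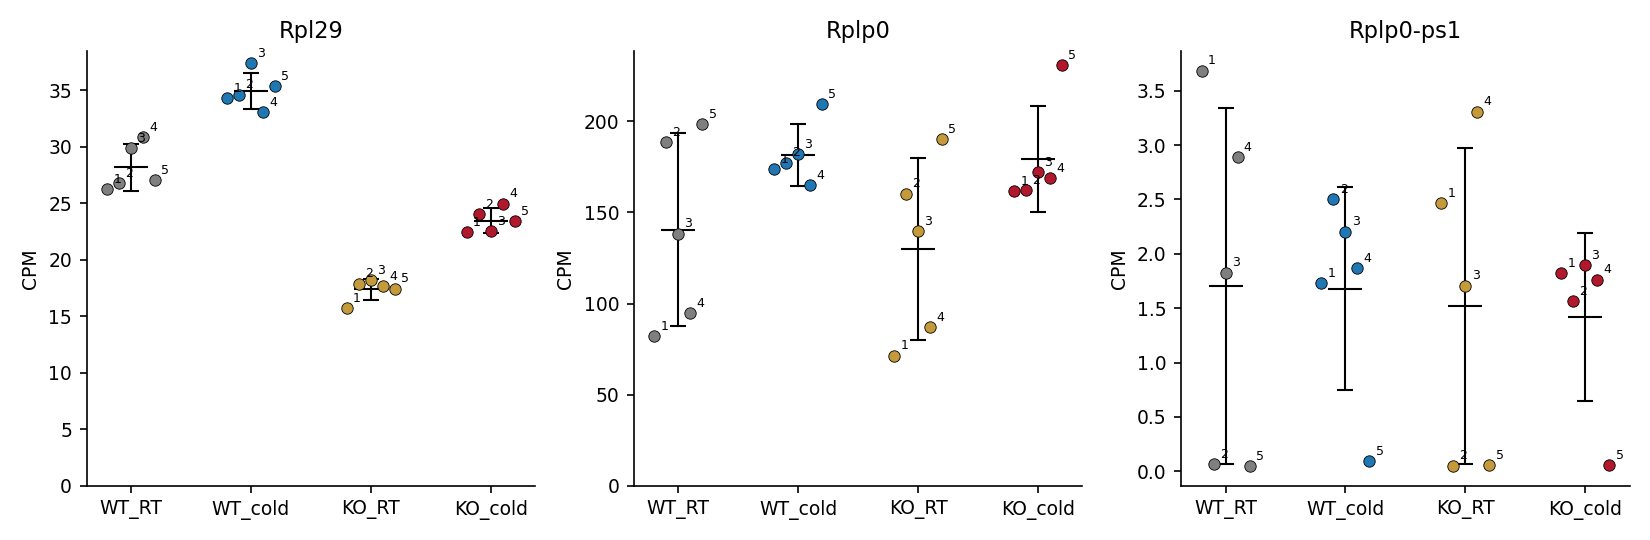
CPM of Rpl29, Rplp0 and the pseudogene Rplp0-ps1 in each library; points carry replicate numbers, and bars are mean and SD (n = 5). Rpl29 separates all 4 groups, with KO_RT lowest (15.7 to 18.2 CPM); Rplp0-ps1 is under 0.1 CPM in 6 libraries.

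Rpl27a, of the large subunit, was the 1 member higher in the knockout in the cold. Its mean was 70.1 ± 4.48 CPM for WT_cold and 85.9 ± 3.40 for KO_cold, after 63.0 ± 9.71 and 65.8 ± 5.27 at room temperature, a difference in the cold of 0.29 (adjusted p = 0.0251). The call ended without any 1 of 5 libraries, WT_cold replicates 2, 4 and 5 and KO_cold replicates 3 and 4 (adjusted p 0.056 to 0.0713). Its change with cold was 0.15 in WT (adjusted p = 0.104), where it was called without WT_RT replicate 4 (0.28, adjusted p = 0.000667), and 0.38 in KO (adjusted p = 0.00029).

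The interaction asks whether cold acted differently in the 2 genotypes. It called 0 members higher and 0 lower with edgeR, also 0 and 0 with DESeq2, and 1 member was under 0.05 with no adjustment. Among all tested genes 0.427% and 0.315% were called. The median interaction of the members was 0.03 on the log2 scale. Across 83 genes, which are not independent, the changes in WT and KO, measured in separate libraries, correlated with a Pearson r of 0.943 and a Spearman rho of 0.784. Rpl3l is among the 83, at -2.84 in WT and -1.995 in KO, far from the other members, and weighs heavily on r. The quartiles of the members were 0.216 and 0.375 in WT and 0.211 and 0.42 in KO.

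Rack1, Rpsa and Fau, ribosomal protein genes that the naming rule leaves out, rose in both genotypes. Rack1, a signalling scaffold on the small subunit, rose from 140.1 ± 15.04 to 182.2 ± 7.38 CPM in WT (0.38, adjusted p = 7.1e-05) and from 130.9 ± 12.8 to 178.4 ± 1.66 in KO (0.45, adjusted p = 9.26e-06). Rpsa rose by 0.33 and 0.36, and Fau, whose product is a ubiquitin-like fusion to a small subunit protein, by 0.38 and 0.39. Rps4l, listed as a paralog but not annotated as protein-coding, rose by 0.48 and 0.47.

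Genes that build ribosomes had a higher median change than the members, a difference that was not tested. Of 42 ribosome biogenesis genes, 38 rose in each genotype, with medians of 0.60 in WT and 0.69 in KO. That is 90.5%, against 26.2% of all tested genes in WT and 27.5% in KO. Nop2, a methyltransferase of ribosomal RNA, rose from 26.0 ± 2.998 to 66.0 ± 12.8 CPM in WT (1.34) and from 25.6 ± 2.28 to 70.3 ± 5.12 in KO (1.46). Gnl3, the nucleolar GTPase nucleostemin, rose by 1.04 and 1.26, and Taf1d, a factor of RNA polymerase I, by 1.04 in WT. Nop16 rose by 0.53 in WT and 1.21 in KO and was the 1 gene of the list with a called interaction (0.68, adjusted p = 0.00151). Dkc1, the pseudouridine synthase, fell in both (-0.84 and -0.60) and Taf1b in KO (-0.33), both named after their values were seen.

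Most translation factors rose as well. Of 36 initiation factors 31 rose and 1 fell in WT (86.1% and 2.78%). In KO 30 rose and 1 fell (83.3% and 2.78%), with a median of 0.38 in both. Of all tested genes 26.2% rose and 30.2% fell in WT, and 27.5% and 31.7% did in KO. The initiation factors were led by Eif2b3 (1.14 and 0.87), a subunit of the exchange factor for eIF2, Eif1 (0.87 and 0.72) and Eif3j1 (0.86 and 0.92). Eif3l, named after its values were seen, fell by 0.19 and 0.28. Of 9 genes on the list of elongation factors 6 rose in each genotype (66.7%), including Eef1g (0.38 and 0.44) and Eef1e1, listed by its symbol (0.81 and 0.89). Eef1a2, the form used in muscle, fell in both (-5.39 and -5.61), and Eif5a2, named after its values were seen, fell in WT (-0.34). Like the muscle markers, Eef1a2 was highest in WT_RT replicate 1, at 13.4 CPM.

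Other mRNAs with a TOP motif gave 14 of 22 higher in each genotype, with medians of 0.25 and 0.27. That is 63.6%, against 26.2% of all tested genes in WT and 27.5% in KO. Snhg5 was the 1 gene lower in WT (-0.44, named after its values were seen). Npm1, the nucleolar chaperone, rose by 0.76 and 0.75, Hnrnpa1 by 0.51 and 0.76, and the snoRNA host Snhg1 by 0.77 and 0.91. Some of these genes are also in the lists of initiation, elongation and biogenesis genes. Regulators of mTORC1 and of translation were split, with 9 higher and 8 lower of 23 in WT and 10 and 8 in KO. In WT that is 39.1% and 34.8%, against 26.2% and 30.2% of all tested genes. In KO it is 43.5% and 34.8%, against 27.5% and 31.7%. Eef2k, the kinase that slows elongation, fell by 1.41 and 1.501, Eif4ebp1, a repressor of cap binding, by 0.88 and 1.25, and Sesn1, an inhibitor of mTORC1, by 0.94 and 1.02. Ddit4, another inhibitor of mTORC1, rose by 0.997 and 1.28.

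Genes of the mitochondrial ribosomal proteins, which translate the mitochondrial genome, were split. Of 77 tested, 17 rose and 9 fell in WT (median 0.04), and 13 rose and 18 fell in KO (median -0.01). In WT that is 22.1% and 11.7%, against 26.2% and 30.2% of all tested genes. In KO it is 16.9% and 23.4%, against 27.5% and 31.7%, so the list was called less often than all genes. Mrpl47 rose by 0.70 and 0.59, Mrpl20 by 0.59 and 0.37 and Mrps6 by 0.54 and 0.72. Mrpl36 fell by 0.48 and 0.60.

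**Figure D5:**
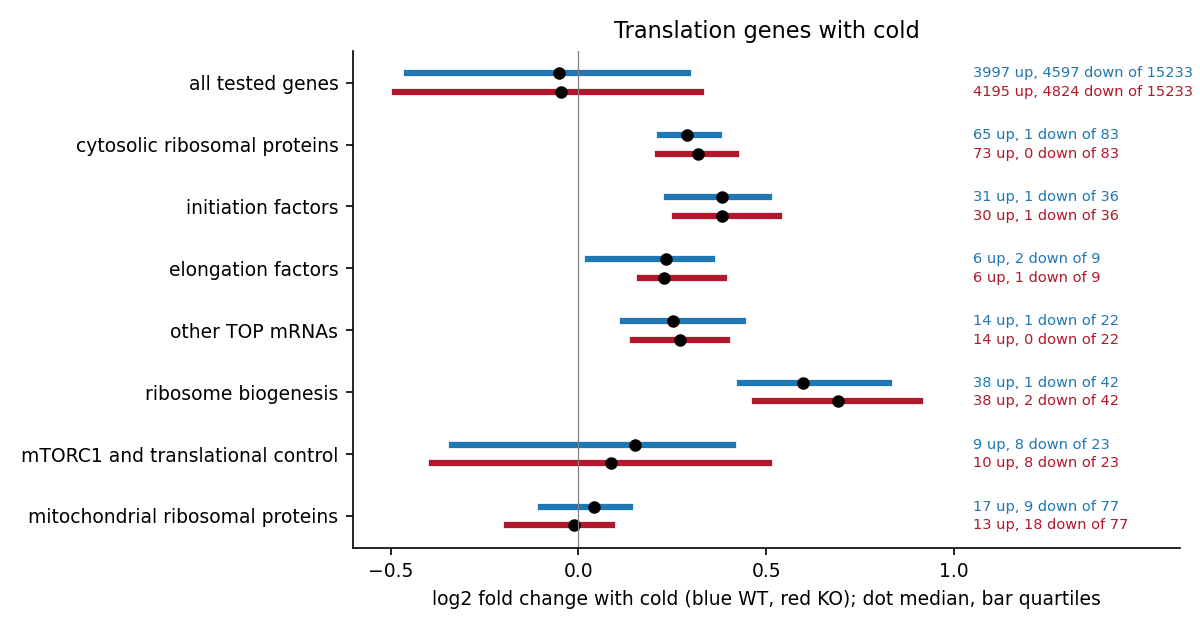
Median (dot) and quartiles (bar) of the log2 fold change with cold in WT (blue) and KO (red) for all tested genes, the members and 6 lists, with the numbers called higher and lower. The members, at 0.29 and 0.32, lie above all genes (-0.05) and below ribosome biogenesis genes (0.60 and 0.69).

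Members with and without a pyrimidine run near the annotated start had close medians. A run within 20 bases of that start need not be a TOP motif at the cap. The 38 members with a pyrimidine run had a median change of 0.29 in WT and 0.34 in KO, and 30 and 31 of them were called. The 25 tested members with a promoter and no such run had medians of 0.33 and 0.32, with 19 and 22 called. The 41 members with the most shared words had medians of 0.32 in WT and 0.34 in KO, and the 42 with the least had 0.26 and 0.28. Reads assigned to the 291 ribosomal protein pseudogenes known by name (symbols ending in -ps) were 0.708 to 0.986 per 100 member reads. Copies under other names are not in that count. Antisense counts were 0.838% to 1.46% of the members' own.

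The fits with marker levels as terms also changed the background and single calls. With the muscle term 23.0% of all genes were called higher in WT and 20.5% in KO, and the members' medians were 0.23 and 0.23. With the lymphocyte term 17.1% and 19.1% were, with medians of 0.26 and 0.27. The lymphocyte term ended the calls of Rpl8 (adjusted p = 0.128 in WT, 0.0948 in KO) and Rplp1 (0.0642 and 0.0501). The muscle term ended the KO calls of Rpl8 (0.0551), Rplp1 (0.148) and Rpl27a (0.089). The lymphocyte means did not overlap between temperatures in either genotype, nor the muscle means in KO, so these terms and cold cannot be told apart there. The part of either cell type in the result was not tested. Without WT_RT replicate 4 and WT_cold replicate 5 the members' median in WT was 0.35.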

How the data were processed

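The mRNA libraries were made with a stranded kit, per the labels. The tools named per the submitters' processing notes are Trim Galore (version 0.6.0) and STAR (version 2.7.8a), with the build GRCm38.p6; the annotation release is not given in the sources used here. The deposited values are counts of reads per gene, per the file headers' layout of STAR's gene counts, with both strands and each strand in separate columns; the reverse strand was used. Reads at several places (18.3% to 21.4%) and in more than 1 gene were not assigned. Symbols, biotypes and coordinates came from GENCODE M21 and promoters from RefSeq (GRCm38.p6).

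The members and lists were chosen with earlier results of these data known. Named genes were those of largest change, the stalk, the paralogs, the members of highest level per length, the ribosomal proteins outside the rule and the 3 leading genes of each list; others are marked, and a few genes under this rule are not reported here. The filter filterByExpr of edgeR 4.0.16 (R 4.3.3; count minimum 10, total minimum 15) left 15233 genes, and libraries were scaled by TMM. One robust quasi-likelihood fit of the 4 groups (16 residual degrees of freedom, biological coefficient of variation 15.3%) gave 5 comparisons, each with Benjamini-Hochberg adjustment over the 15233 genes. Errors of changes are standard errors, and CPM are given as mean ± SD over 5 libraries. Alternatives were other scalings, no filter, both strands, marker means as terms, the replicate block, fits of only the groups compared, DESeq2 1.42.0 and each library left out; 1 was added after seeing the data. The procedure was tested on simulated data.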

Additional observations from a re-analysis of the deposited data

Results flagged for a closer look

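Within the 4 groups of 5, 100 sets of values of named members and of the members' share of counts were looked at for a library far from the rest, and 6 were flagged; chance flags about 1 in 20 groups. Rps19bp1 stood at 9.01 CPM in the highest KO_RT library (next 8.19), and Rpl13a at 3.74 CPM in the highest WT_RT library (next 2.76). Rpl3l, the muscle paralog, stood at 3.61 CPM in the highest WT_RT library (next 1.03), which also had the highest muscle markers. In KO_cold the highest library held 230.8 CPM of Rplp0 (next 172.1), and the highest values of Rplp2 and Rps27rt were 168.6 (next 159.9) and 2.57 CPM (next 1.82).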

How the results depend on the processing

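The number of members called higher in WT was 65 and lay between 66 and 72 with other scalings, no filter, both strands or DESeq2; with the lymphocyte marker mean as a term it was 35. In KO it was 73, with 31 for the muscle marker mean and 41 for the lymphocyte marker mean as a term. The 1 member called lower in WT became 0 with the muscle term, and the 0 in KO became 1 with the lymphocyte term and 1 with DESeq2, each time Rpl3l. The cause was not tested. Rpl3l in WT reversed to 0.15 with the muscle term, whose list marks the same tissue. Leaving out 1 library at a time gave 61 to 77 higher and 0 to 1 lower in WT, 68 to 74 higher and 0 to 1 lower in KO, 0 higher and 1 lower for the knockout at room temperature, 0 to 1 higher and 1 lower for the knockout in the cold, and 0 for the interaction. The highest count in WT, 77, was without WT_RT replicate 4 and the lowest, 61, without WT_RT replicate 1. The counts of 0 or 1 changed without WT_RT replicate 1 or KO_RT replicate 5 (both Rpl3l), and without WT_cold replicate 2, 4 or 5 or KO_cold replicate 3 or 4 (Rpl27a). The medians then ranged from 0.263 to 0.36 in WT and 0.31 to 0.375 in KO.

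Over 30 pairs of same-numbered libraries the correlations of their deviations were -0.184 to 0.274, 7 of them over 0.1, and a library correlated best with its own number in 13 of 60 cases, so the numbers were not taken to pair the samples. The 3 highest of the pairs between WT_cold and KO_cold were replicates 1, 4 and 5 (0.143, 0.226 and 0.274). With the replicate block 68 members were higher in WT and 73 in KO, and Rplp0 was called (0.45, adjusted p = 0.0353 in WT; 0.54, adjusted p = 0.0134 in KO), as were Rplp2 (0.16, adjusted p = 0.0232) and Rps15 (0.14, adjusted p = 0.038) in WT. Depth limits members under 2 CPM, such as Rps10, Rpl24 and Rps27rt, and the loss of reads at several places limits every level.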
